A study of Mus musculus with 19 samples.

Results

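miR-132 and miR-212 are microRNAs (miRNAs, short RNAs that guide the silencing of messenger RNAs) made from a pair of neighbouring precursors. They were followed here in the CA1 subregion of the mouse hippocampus. All names starting with mmu-miR-132- or mmu-miR-212- were taken, which gave 4 mature miRNAs, the 5p and 3p arm of each precursor, of 1148 names in the files. All 4 passed the filter on low counts, as did 509 miRNAs in all. The 19 small RNA libraries were all from the strain given as C57B/6JRj, genotype WT. The 6 aged SAHA libraries came from animals of 20 months that received 0.67 g SAHA and 18 g cyclodextrin per L of water by mouth for 4 weeks. The 5 aged vehicle libraries came from animals of 20 months that received 18 g cyclodextrin per L for the same time. The 8 young vehicle libraries came from animals of 3 months given the same vehicle, for a time not given in the sources used here. SAHA, also called vorinostat, blocks histone deacetylases, the enzymes that remove acetyl groups from histones. Cyclodextrin was received by all groups as the vehicle. The labels do not say that each library is a separate animal, so the p-values measure the spread between these libraries.

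As background, transcription of the miR-132 and miR-212 locus in neurons is induced by synaptic activity and neurotrophins through the transcription factor CREB. miR-132-3p promotes the growth of dendrites and spines. miR-212-3p has the same seed, the stretch of a miRNA that pairs with its targets, and is known from studies of cocaine intake in rats. The labels name no manipulation of neuronal activity, so the label "activity-induced" could not be checked in these data.

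The sequences show how closely the 4 products are related. All 4 names matched a RefSeq mature sequence (build GRCm38.p6). They are printed 5′ to 3′ with the seed, bases 2 to 8, in capitals:
mmu-miR-132-3p: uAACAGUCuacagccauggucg
mmu-miR-212-3p: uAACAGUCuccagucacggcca
mmu-miR-132-5p: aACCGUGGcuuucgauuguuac
mmu-miR-212-5p: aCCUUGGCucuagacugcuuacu

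The pair of 3p arms had the same seed, AACAGUC, and no other mouse miRNA in the RefSeq table had it. They were identical in their first 9 bases and in 17 of 22 positions. The 5p arms had different seeds, each found in 1 miRNA of the table, and were identical in 9 of 22 positions compared from the 5′ end. That comparison allowed no shift, and miR-132-5p has 1 extra base before the ACC with which miR-212-5p starts. The value of 9 of 22 therefore does not measure how alike the 5p arms are. The arms were 22 or 23 bases long, so that counts need no correction for length between them. How evenly different sequences were captured in the libraries was not measured, so shares of counts need not equal shares of molecules.

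Both precursors lie on the plus strand of chromosome 11 in GRCm38 (mm10), Mir212 at chr11:75173388-75173478 and Mir132 at chr11:75173682-75173747, with 203 bases between them. In GENCODE M21 both lie in the intron between exon 1 and exon 2 of the noncoding transcript 1700016P03Rik (75172560 to 75177633). The hairpins are shown with the mature arms in capitals, the 5p arm first, since the arms are compared below:
Mir212: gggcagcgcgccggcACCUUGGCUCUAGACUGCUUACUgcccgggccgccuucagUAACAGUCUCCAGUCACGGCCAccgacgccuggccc
Mir132: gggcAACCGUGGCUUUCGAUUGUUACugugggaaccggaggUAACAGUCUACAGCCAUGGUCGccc

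The totals assigned to miRNAs were 4211365 to 5410804 counts in aged SAHA, 4642434 to 5249168 in aged vehicle and 3585489 to 6808281 in young vehicle libraries. All 20 miRNAs of a neuron-enriched list (both arms of miR-124, miR-9, miR-128 and others) were present, and their levels were summed in CPM, the standard depth-normalised unit, computed here with library sizes scaled by TMM. The sums ran from 74657 to 80870.5 in aged SAHA libraries, from 87508 to 93111 in aged vehicle libraries and from 86557 to 97014 in young vehicle libraries. Of lists for other cells, choroid plexus and ependymal miRNAs reached 2361 to 3988 CPM (1 of 8 at 0), erythrocyte miRNAs 2363 to 4050.4 CPM (0 of 5 at 0) and muscle miRNAs 69.0 to 135 CPM (2 of 7 at 0) across the 19 libraries. Epithelial miRNAs (2 of 10 at 0) summed to 170.1 to 299 CPM in aged SAHA, to 224 to 277 in aged vehicle and to 282 to 389 in young vehicle libraries. For oligodendrocyte miRNAs (0 of 5 at 0) the sums were 3739.7 to 8102 CPM in aged SAHA, 4052 to 5627 in aged vehicle and 3337 to 4511 in young vehicle libraries. Those of microglial and immune miRNAs (0 of 10 at 0) were 1379 to 2536 CPM in aged SAHA, 1489.5 to 1822 in aged vehicle and 1353 to 1478 in young vehicle libraries, and aged SAHA 1 was the highest of the 19 for these last 2 lists. Aged SAHA 1 had the lowest mean correlation of log2 CPM with the other libraries of its group (0.989, against 0.992 to 0.995 in the other 18), and results without it and young vehicle 6 are given with the processing alternatives.

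The members mmu-miR-132-3p, mmu-miR-132-5p, mmu-miR-212-3p and mmu-miR-212-5p made up 0.389% to 0.562% of the miRNA counts of a library. miR-132-3p was the highest of them in 19 of 19 libraries, with 3400.2 ± 367 CPM (SD, n = 19), 41st of the 509 tested miRNAs by mean level. miR-212-3p followed with 518 ± 47.2 CPM (rank 107), above both 5p arms in 19 of 19 libraries. miR-132-5p had 390.1 ± 35.3 CPM (rank 127) and miR-212-5p 386 ± 47.8 CPM (rank 131). These last levels did not differ beyond their spread, since miR-132-5p was above miR-212-5p in 11 of 19 libraries. The neighbours of miR-132-3p in the order were miR-100-5p with 3463 ± 730 CPM and miR-151-5p with 3381 ± 509 CPM, and those of miR-212-3p were miR-127-5p with 535 ± 58.3 CPM and miR-27a-3p with 516 ± 59.4 CPM, all within the spread of the member beside them. miR-342-3p (391.7 ± 33.9 CPM) and miR-376b-3p (388 ± 45.0 CPM) enclosed miR-132-5p, and miR-380-3p (387 ± 40.8 CPM) and miR-1249-3p (385 ± 69.3 CPM) enclosed miR-212-5p.

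miR-132-3p, the product of the locus with the most counts, had 2804, 3147 and 3547 CPM as the lowest, median and highest value in aged SAHA libraries. In aged vehicle libraries it had 4277, 3203, 3815, 3141 and 3644 CPM, and in young vehicle libraries 2938, 3362 and 4037 CPM as the lowest, median and highest. The 3 groups overlapped, with 3 of 6 aged SAHA libraries below the lowest aged vehicle library and aged vehicle 1 above all young ones. Behind these levels stood 11062 to 26607 counts per library.

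miR-132-5p, the arm of the same hairpin with fewer counts, had 348, 366 and 437 CPM (lowest, median, highest) in aged SAHA libraries. The aged vehicle libraries had 427, 405, 387, 419 and 386 CPM and the young vehicle libraries 315, 383 and 444 CPM. All 5 aged vehicle values lay inside the ranges of both other groups, and young vehicle 6 was the lowest of all 19 libraries.

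miR-212-3p had 422, 513 and 593 CPM in aged SAHA libraries. It had 532, 485.4, 501, 497 and 508 CPM in aged vehicle libraries and 475, 529.6 and 604 CPM in young vehicle libraries. All 5 aged vehicle libraries lay within the range of the young ones, and 2 aged SAHA libraries, 1 and 3, lay below both vehicle groups.

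miR-212-5p had 256, 377 and 473 CPM in aged SAHA libraries. It had 393, 384.1, 373, 383 and 387 CPM in aged vehicle libraries and 346, 413 and 453 CPM in young vehicle libraries. Aged SAHA 3 held the lowest value of the 19 and aged SAHA 2 the highest. Aged SAHA 3 was also the lowest of the 19 libraries for miR-132-3p and miR-212-3p.

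Aged SAHA 1 and 3, the lowest libraries for both arms of miR-212, stood apart in the summed level of endothelial and mural miRNAs (0 of 8 at 0). It was 60278 CPM in aged SAHA 1 and 61365 CPM in aged SAHA 3, against 26785 to 29198 CPM in the other 4 aged SAHA libraries. The sum rests mostly on miR-143-3p (mean 26075.5 CPM over the 19 libraries), followed by miR-126-5p (8773 CPM). The SD of log2 CPM within groups was 0.60 for miR-143-3p and 0.23 for miR-126-5p, so the sum need not speak for the whole list. Sums of like size were found in aged vehicle 2 (53275 CPM; 26076 to 30404 CPM in the other 4) and in young vehicle 4 (65689 CPM; 26039 to 39086 CPM in the other 7). Aged SAHA 1 and 3 also stood apart in muscle miRNAs, at 134.6 and 132.96 CPM against 85.01 to 90.41 CPM in the other 4. The same held for epithelial miRNAs, at 298.5 and 273.8 CPM against 170.1 to 193.4 CPM. Aged vehicle 2 and young vehicle 4 had the highest muscle sums of their groups, 105.1 and 127.5 CPM. Their epithelial sums, 240.1 and 288.1 CPM, lay within the range of the other libraries of their groups. The part of any of these lists in the members' values was not tested.

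**Figure D1:**
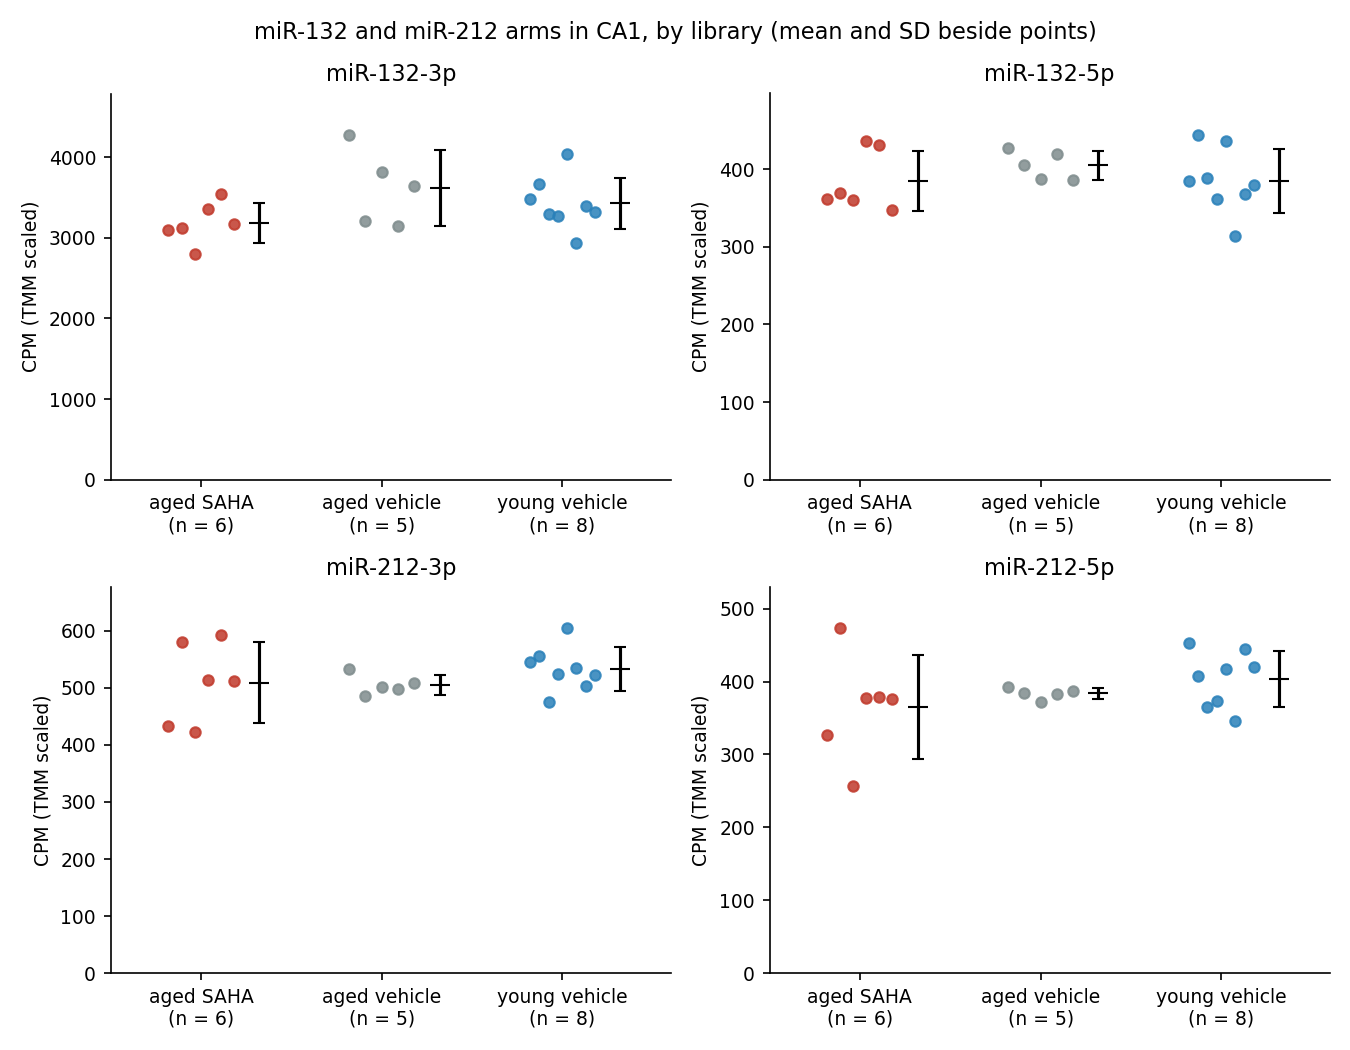
Level of each arm in CPM (depth-normalised counts with TMM scaling, axes from 0) in every library, with the mean and SD of each group beside its points. The groups overlap in all 4 panels, and miR-212-5p runs from 256 to 473 CPM in aged SAHA against 373 to 393 CPM in aged vehicle libraries.

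The age comparison asks whether the products of the locus differed with age in vehicle-treated mice. None of the 4 passed the test. Log2 fold changes of aged over young vehicle were 0.08 ± 0.08 (SE) for miR-132-3p, 0.07 ± 0.08 for miR-132-5p, -0.08 ± 0.08 for miR-212-3p and -0.07 ± 0.10 for miR-212-5p. Both arms of miR-132 had positive values and both arms of miR-212 negative ones. By the edgeR quasi-likelihood test the adjusted p (Benjamini-Hochberg over 509 miRNAs) was 0.679, 0.698, 0.672 and 0.772 in that order, and 0 of 4 had an unadjusted p under 0.05. Of the 4, 0 were called by edgeR, DESeq2 or limma-voom, where edgeR called 2.16% of all tested miRNAs (11 of 509). The 95% intervals of the fold ran from 0.941 to 1.18 for miR-132-3p and from 0.845 to 1.06 for miR-212-3p. For miR-132-5p the interval was 0.939 to 1.18, and for miR-212-5p 0.823 to 1.098. The median of the 4 was 8.4e-05 with 2 positive, against -0.0030 with 250 of 509 positive over all tested. In 0 of 4 did the groups stand clear of each other, where 3.14% of all tested miRNAs did.

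The SAHA comparison asks whether the inhibitor moved these miRNAs in aged animals. miR-132-3p averaged 3185 ± 252 CPM in aged SAHA libraries and 3616 ± 467 CPM in aged vehicle libraries (SD, n = 6 and 5), a log2 fold change of -0.18 ± 0.08 (SE) and a fold of 0.780 to 0.994 (95% interval). Its unadjusted p of 0.0410 ranked 92nd of the 509 miRNAs, and its adjusted p by edgeR was 0.227, so the value did not pass. The log2 values were -0.07 ± 0.08 for miR-132-5p, 0.01 ± 0.08 for miR-212-3p and -0.07 ± 0.11 for miR-212-5p, with adjusted p of 0.674, 0.927 and 0.736 by edgeR. Their 95% intervals of the fold were 0.841 to 1.07, 0.895 to 1.14 and 0.816 to 1.11. Of the members 0 of 4 were called by edgeR, DESeq2 or limma-voom and 1 of 4 had an unadjusted p under 0.05, where edgeR called 4.32% of all tested miRNAs and 19.4% had an unadjusted p under 0.05. The median of the 4 was -0.07, against -0.0077 over all tested, and in 0 of 4 did the groups stand clear, where 4.91% of all tested did.

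The summed neuron-enriched list was lower in aged SAHA than in aged vehicle libraries, without overlap. By edgeR 3 of its 20 miRNAs were called lower and 0 higher, where 4.32% of all tested miRNAs were called. The 3 were miR-128-3p, miR-153-5p and miR-9-3p. The list's median log2 fold change was -0.10, against -0.0077 over all tested miRNAs. Of the 20, 4 had a positive log2 fold change. The sum rests on a few abundant miRNAs. miR-9-5p, with a mean of 38684 CPM, had a log2 fold change of -0.11 ± 0.08, and miR-128-3p, with 31834 CPM, had -0.44 ± 0.08. The other called values were those of miR-153-5p (-0.38 ± 0.11, adjusted p 0.0368 by edgeR) and miR-9-3p (-0.28 ± 0.07, adjusted p 0.0176). Lower values that were not called included miR-128-2-5p (-0.32 ± 0.15, adjusted p 0.222 by edgeR), miR-138-5p (-0.29 ± 0.13, 0.218) and miR-124-5p (-0.26 ± 0.09, 0.0882). In contrast, miR-124-3p had -0.0093 ± 0.06, miR-129-5p -0.04 ± 0.07 and miR-218-5p -0.03 ± 0.11. The list's part in the value of miR-132-3p was not tested. In whole tissue, fewer cells of a type and less RNA per cell cannot be told apart. Without aged vehicle 1, which had the highest miR-132-3p level of the 19 libraries, the log2 fold change of miR-132-3p was -0.11 with an adjusted p of 0.604 by edgeR. Over the 29 alternatives tried it ran from -0.23 to -0.11, with adjusted p from 0.150 to 0.604.

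Aged SAHA was also set against young vehicle, which combines age and drug and shares libraries with both comparisons above. Log2 fold changes were -0.11 ± 0.08 (SE) for miR-132-3p, -0.0017 ± 0.08 for miR-132-5p, -0.07 ± 0.07 for miR-212-3p and -0.15 ± 0.10 for miR-212-5p. Adjusted p by edgeR was 0.339, 0.989, 0.565 and 0.289, and 0 of 4 had an unadjusted p under 0.05. Of the 4, 0 were called by edgeR, DESeq2 or limma-voom, where edgeR called 13.9% of all tested miRNAs (71 of 509), the largest share of the 3 comparisons. The 95% intervals of the fold together ran from 0.788, for miR-212-5p, to 1.11, for miR-132-5p. The log2 value of miR-212-5p was -0.24 without aged SAHA 2 (adjusted p 0.0837 by edgeR) and -0.06 without aged SAHA 3 (adjusted p 0.633), the range over all alternatives tried. In 0 of 4 did the groups stand clear, against 3.54% of all tested miRNAs.

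**Figure D2:**
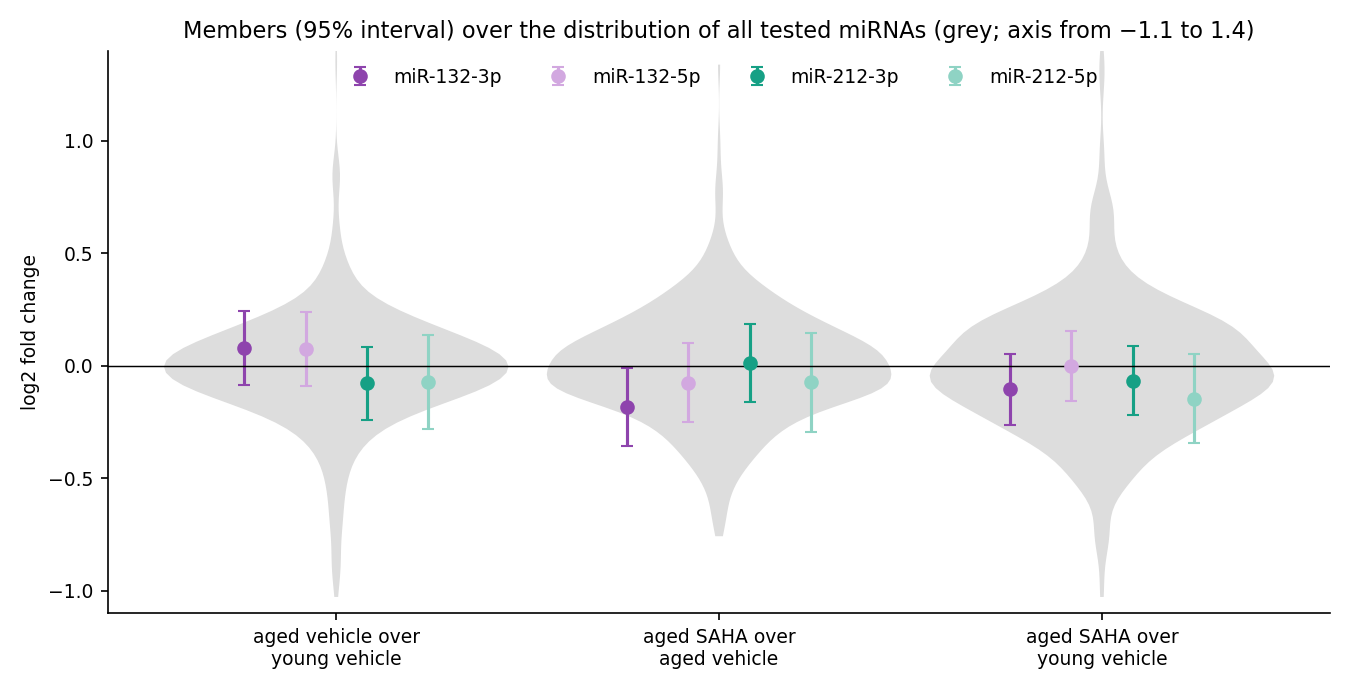
Log2 fold change of each arm in the 3 comparisons (points, with 95% intervals) over the distribution of all 509 tested miRNAs (grey). Values above 0 are higher in the first group named under the axis. The 12 points lie between -0.18 and 0.08, and the interval of miR-132-3p under SAHA ends just below 0.

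Other miRNAs reported to respond to neuronal activity or to act at synapses were described from a list of 58 names without the members, 52 of which were tested. All names of the neuron-enriched list except those of miR-153 are also in this list, among them miR-128-3p and miR-9-3p. The microglial and immune list also holds miR-146a-5p. Calls shared between lists are therefore not separate observations. With age 1 of the 52 was called higher and 0 lower, namely miR-146a-5p, an inhibitor of inflammatory signalling also induced in seizure models (0.80 ± 0.17 on the log2 scale, adjusted p 0.00938 by edgeR). Of all tested miRNAs 2.16% were called with age. With SAHA 0 were called higher and 4 lower: miR-128-3p (-0.44 ± 0.08, adjusted p 0.00344), miR-379-3p (-0.53 ± 0.11, 0.00420), miR-485-3p (-0.50 ± 0.10, 0.00439) and miR-9-3p (-0.28 ± 0.07, 0.0176), by edgeR, where 4.32% of all tested were called. The list's median was -0.03 with 22 of 52 positive, against -0.0077 and 248 of 509 over all tested. For aged SAHA over young vehicle 2 were called higher and 5 lower, led by miR-128-3p (-0.46 ± 0.08), miR-146a-5p (0.95 ± 0.16), miR-485-3p (-0.37 ± 0.09) and miR-9-3p (-0.24 ± 0.06), and the median was -0.04 against -0.03 over all tested. With 13.9% of all tested miRNAs called in that comparison, the list's 7 of 52 lay near the background.

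The share of each hairpin's counts taken by its 3p arm was higher for miR-132 than for miR-212 in all 3 groups. For miR-132 the 3p arm held 89.2% ± 0.615 in aged SAHA, 89.8% ± 1.24 in aged vehicle and 89.9% ± 0.412 in young vehicle libraries (SD, n = 6, 5 and 8). For miR-212 it held 58.5% ± 2.65 in aged SAHA, 56.8% ± 0.685 in aged vehicle and 56.9% ± 2.52 in young vehicle libraries. Of the counts that carry the shared AACAGUC seed, miR-212-3p gave 13.8% ± 1.19 in aged SAHA, 12.3% ± 1.08 in aged vehicle and 13.5% ± 0.870 in young vehicle libraries.

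The ratio of the 3p to the 5p arm of miR-132 was 8.31 ± 0.538 in aged SAHA, 8.94 ± 1.16 in aged vehicle and 8.92 ± 0.395 in young vehicle libraries. Within aged vehicle it was 10.02, 9.85 and 9.44 in libraries 1, 3 and 5 and 7.90 and 7.49 in libraries 2 and 4, the same libraries in which miR-132-3p itself was high or low. Libraries 1, 3 and 5 lay above all 8 young vehicle libraries and libraries 2 and 4 below them. miR-132-5p did not follow that division, with 427, 387 and 386 CPM in libraries 1, 3 and 5 and 405 and 419 CPM in libraries 2 and 4. The ratio of the miR-212 arms was 1.42 ± 0.158 in aged SAHA, 1.32 ± 0.0366 in aged vehicle and 1.33 ± 0.137 in young vehicle libraries.

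Counts of both miR-132 arms were 4.14 ± 0.487 times those of both miR-212 arms in aged SAHA, 4.52 ± 0.439 times in aged vehicle and 4.07 ± 0.254 times in young vehicle libraries. These ratios inside a library need no scaling between libraries. With age, log2 of miR-212 over miR-132 differed by -0.15 between aged and young vehicle libraries, with 3 of 5 aged libraries below all 8 young ones. The exact two-sided permutation p was 0.0497, and the Benjamini-Hochberg adjusted value over the 12 tests of this kind (4 values in 3 comparisons) was 0.298. The other value with an unadjusted exact p under 0.05 was log2 of miR-132-3p over miR-132-5p between aged SAHA and young vehicle libraries. It differed by -0.10, with 3 of 6 aged SAHA libraries below all 8 young ones (exact permutation p 0.0360, adjusted 0.298).

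None of the 12 passed the adjusted threshold, and the other 10 had exact permutation p from 0.126 to 0.918. The lowest of these 10 was that of the summed miR-132-3p and miR-212-3p level, the total carrying the AACAGUC seed. It was 3694 ± 308 CPM in aged SAHA and 4121 ± 483 CPM in aged vehicle libraries (SD, n = 6 and 5), a log2 difference of -0.15 with an adjusted value of 0.444 by the exact permutation test. Young vehicle libraries had 3960.1 ± 348 CPM.

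**Figure D3:**
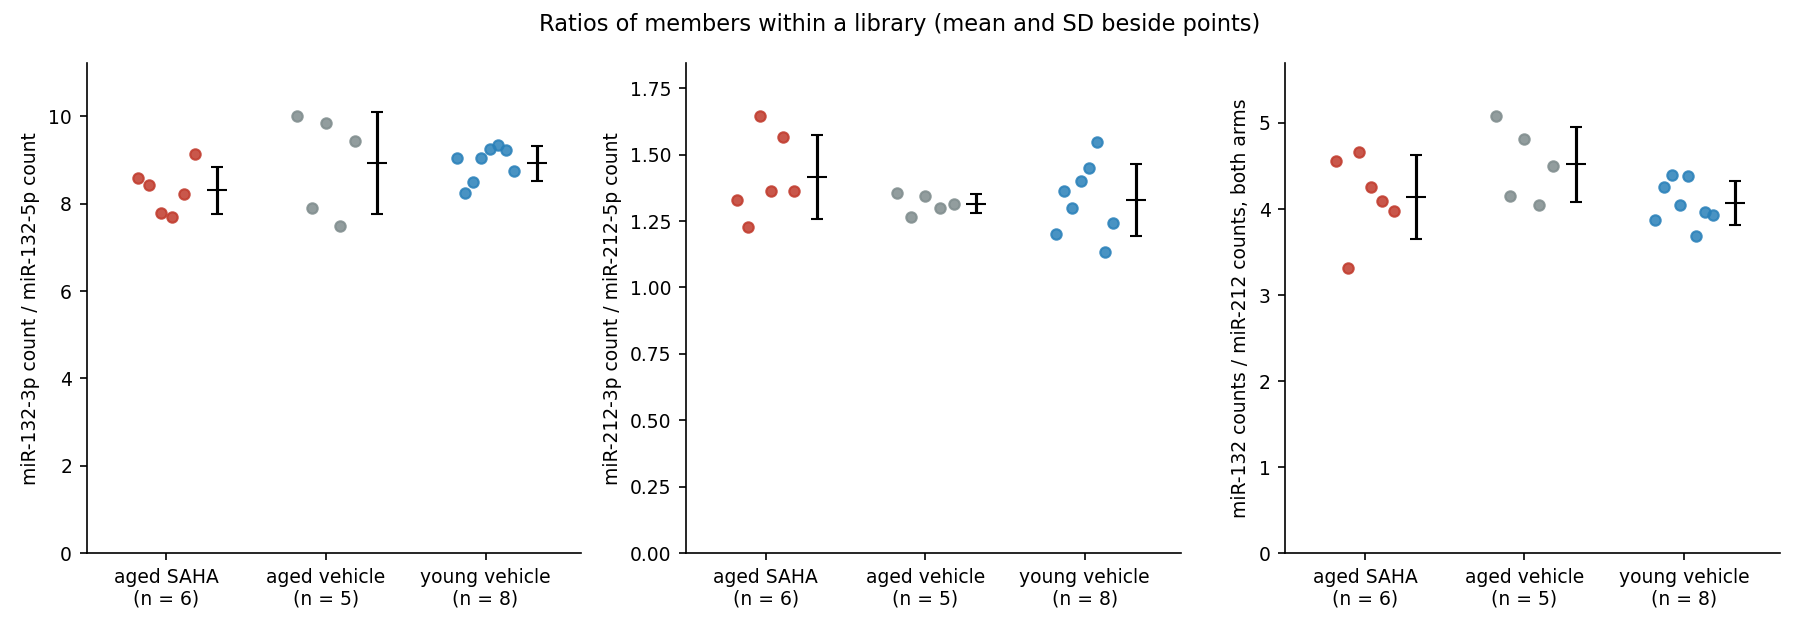
Ratios of counts within each library (axes from 0) for the 2 arms of miR-132, the 2 arms of miR-212 and both arms of miR-132 over both arms of miR-212, with group means and SD. Aged vehicle libraries fall at 7.49 and 7.90 or at 9.44 to 10.02 for the miR-132 arms and lie close together, 1.26 to 1.36, for the miR-212 arms.

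The spread between libraries of a group lay within that of other miRNAs of like abundance. The SD of log2 CPM within groups was 0.14 for miR-132-3p, 0.13 for miR-132-5p, 0.14 for miR-212-3p and 0.19 for miR-212-5p. Among the 50 other tested miRNAs nearest in level, 24, 14, 18 and 38 had a smaller SD in that order. The groups differed in the spread of miR-212-5p, whose coefficient of variation was 19.6% in aged SAHA, 1.91% in aged vehicle and 9.50% in young vehicle libraries. Counting error alone gives 2.38%, 2.29% and 2.20% there, so that the aged vehicle values lay as close together as counting allows. For miR-212-3p the coefficient was 14.0% in aged SAHA, 3.44% in aged vehicle and 7.14% in young vehicle libraries, with counting error of 1.999%, 1.997% and 1.91%. For miR-132-5p it was 10.1% in aged SAHA, 4.54% in aged vehicle and 10.8% in young vehicle libraries, also lowest in aged vehicle. Only miR-132-3p ran the other way, with 7.92% in aged SAHA, 12.9% in aged vehicle and 9.37% in young vehicle libraries. The differences in spread were noticed in these values and were not tested.

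**Figure D4:**
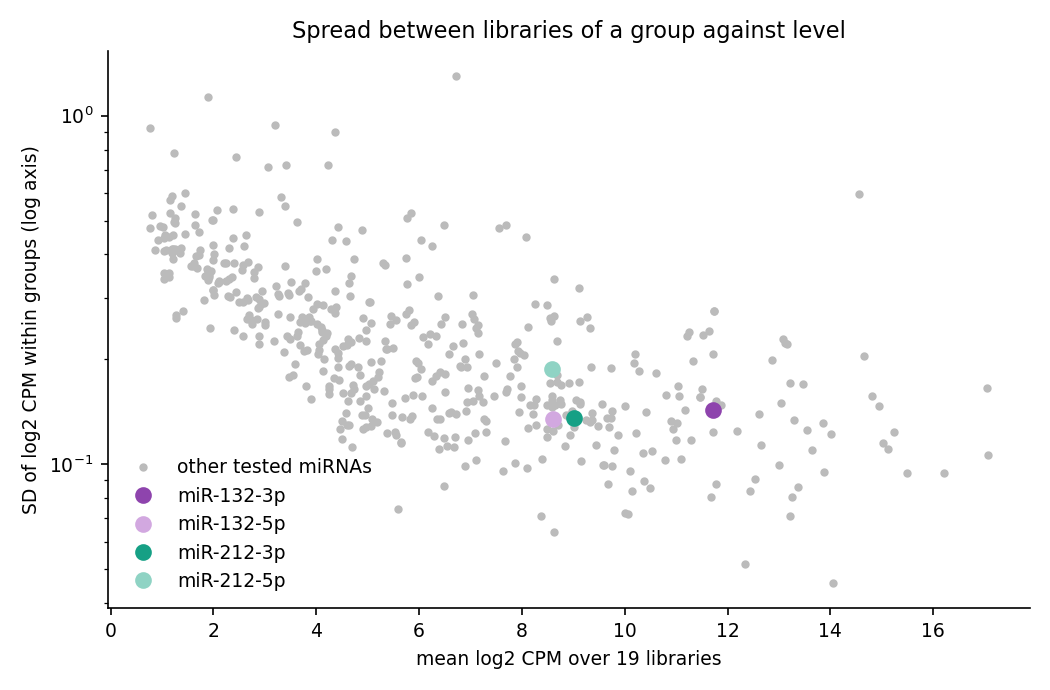
SD of log2 CPM between libraries of a group (log axis) against mean log2 CPM over the 19 libraries, for the 4 arms and the other tested miRNAs (grey). The 4 arms lie inside the cloud at their level, from 0.13 to 0.19.

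By Pearson r, 3 of the 6 pairs of arms passed a test of correlation over the libraries. After subtraction of group means, log2 CPM of the arms of miR-132 correlated over the 19 libraries with Pearson r = 0.64 (permutation p 0.00223, adjusted over 6 pairs 0.00669) and Spearman rho = 0.56 (permutation p 0.0114, adjusted 0.0201). The 3p arms of the 2 precursors gave r = 0.58 (permutation p 0.00222, adjusted 0.00669) and rho = 0.70 (permutation p 0.000770, adjusted 0.00462). The arms of miR-212 gave r = 0.70 (permutation p 0.0134, adjusted 0.0268) and rho = 0.63 (permutation p 0.0134, adjusted 0.0201). Without the 2 libraries farthest from the median of the first member named, r was 0.58, 0.50 and 0.52 for these pairs.

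The other 3 pairs had a lower r. miR-132-3p and miR-212-5p gave r = 0.42 (permutation p 0.0368, adjusted 0.0553; rho = 0.55, permutation p 0.00964, adjusted 0.0201). miR-132-5p had r = 0.43 with miR-212-3p (permutation p 0.107, adjusted 0.128; rho = 0.51, permutation p 0.0517, adjusted 0.0621). For the 5p arms r was 0.32 (permutation p 0.258, adjusted 0.258; rho = 0.41, permutation p 0.125, adjusted 0.125). Without the 2 farthest libraries these 3 values of r were 0.48, 0.53 and 0.22.

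Within groups, values of r are given for those of 6 or more libraries. For the 5 aged vehicle libraries none is given, and there miR-132-5p did not follow miR-132-3p, as the values by library above show. The r of the miR-132 arms was 0.76 in aged SAHA (n = 6) and 0.91 in young vehicle (n = 8). That of the miR-212 arms was 0.85 in aged SAHA and 0.27 in young vehicle libraries, a difference that was not tested. That of the 3p arms was 0.74 in aged SAHA and 0.64 in young vehicle libraries. All values share the library and its scaling: over the 129286 pairs of tested miRNAs the median r was -0.0011 and the 95th percentile 0.52.

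**Figure D5:**
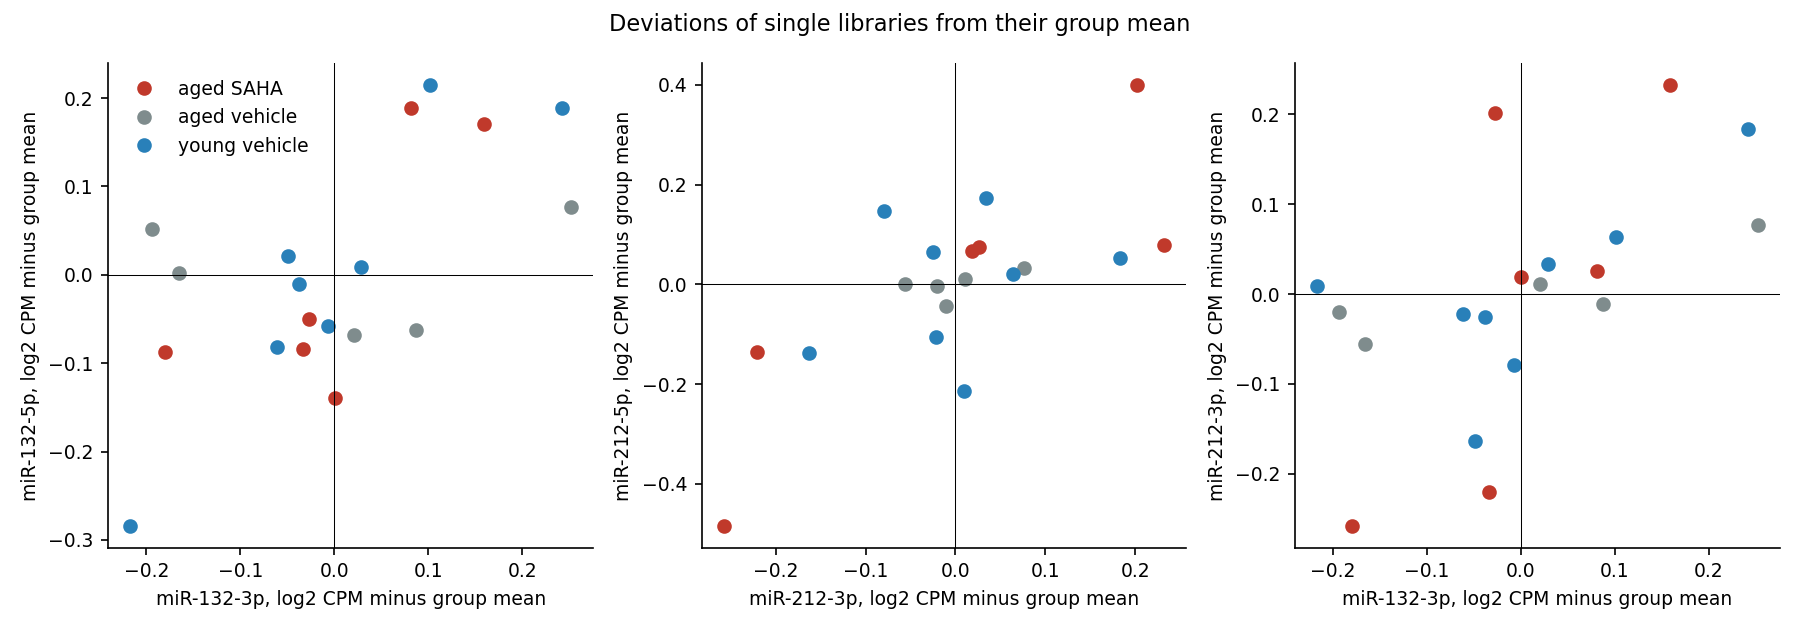
Deviation of each library from its group mean in log2 CPM, for the arms of miR-132, the arms of miR-212 and the 2 3p arms that share a seed, coloured by group. Points run from lower left to upper right in all 3 panels (r = 0.64, 0.70 and 0.58 over 19 libraries).

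Of the 505 tested miRNAs outside the locus, those most like a member over the 19 libraries, by Pearson r after subtraction of group means, are given as a description. For miR-132-3p they were miR-379-3p (r = 0.85), miR-138-5p (0.78) and miR-139-5p (0.69). miR-138-5p, a brain-enriched miRNA that limits spine size in rat neurons, was also second for miR-132-5p (0.71), between miR-376c-3p (0.73) and miR-137-5p (0.64). The mean level of miR-137-5p was only 3.6 CPM. For miR-212-3p the highest were miR-1839-3p (0.77), miR-337-5p (0.76) and miR-103-3p (0.76). For miR-212-5p they were miR-874-3p (0.83), miR-124-3p, the most studied neuronal miRNA (0.77), and miR-221-3p (0.73). The sister arm ranked 7th for miR-132-3p, 3rd for miR-132-5p, 5th for miR-212-3p and 4th for miR-212-5p among the 508 other tested miRNAs. Across the precursors ranks were lower: miR-212-3p was 14th for miR-132-3p, and miR-132-3p was 25th for miR-212-3p. In the pairs across precursors that include a 5p arm, the partner ranked from 37th to 97th.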

How the data were processed

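Libraries were made with TruSeq reagents from CA1 RNA, per the labels' protocols. The deposited values are counts per mature miRNA name, not normalised by the authors. CASAVA 1.8.2, cutadapt, STAR, HTSeq and mm10 are named in the submitters' processing notes, without settings, and the miRNA annotation release and the treatment of reads fitting both 3p arms are not given in the sources used here. The 4 HTSeq summary lines were 0 in all files and left out. Reads carry no molecular identifiers, so counting errors cover counting alone.

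Groups came from the labels, which name no batch. Counts were filtered (filterByExpr, minimum count 10, total 15; 509 of 1148 miRNAs kept), scaled by TMM and fitted in 1 model with edgeR 4.0.16 (R 4.3.3; robust quasi-likelihood F test, 1 term per group). miRNAs were called at 0.05 after Benjamini-Hochberg adjustment over all those tested. The SE is the log2 fold change divided by the square root of F. For ratios the permutation tests were exact and two-sided, and for correlations 100000 permutations within groups were drawn (scipy 1.17.1). The fit was tested on simulated data. No 2 libraries of the same group were copies: the chi-square of 53 same-group pairs, divided by its degrees of freedom, ran from 27.4 to 329. Libraries of different groups were not compared in this way.

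Named miRNAs were the 4 members, their neighbours in level, the 3 most alike per member and up to 4 called miRNAs of the activity list per comparison. The members, lists and rules were chosen with earlier results of these data known. Alternatives were other scalings, filters, tools (DESeq2 1.42.0, limma 3.58.1), sample sets and a replicate block.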

Additional observations from a re-analysis of the deposited data

How the results depend on the processing

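Under 29 alternatives per comparison 0 of the 4 miRNAs were called in each, and of 348 alternative fold changes 0 passed the adjusted threshold (lowest adjusted p 0.0837 by edgeR, for miR-212-5p in aged SAHA over young vehicle without aged SAHA 2) and 22 had the other sign, all of them among the 3 values given next. miR-132-5p in aged SAHA over young vehicle turned to 0.019 (DESeq2 size factors), 0.043 (library size only), 0.012 (no low-count filter), 0.0028 (CPM of 10 in 5 libraries), 0.018 (DESeq2), 0.0032 (limma-voom), 0.029 (only the groups compared) and 0.028 (3 most abundant miRNAs left out). With 1 library left out it ran from -0.039 to 0.029, and for SAHA miR-212-3p ran from -0.034 to 0.062 and miR-212-5p from -0.16 to 0.010. Calls over all miRNAs for age were 20 with DESeq2, 26 with limma-voom, 19 with only the groups compared and 18 with aged SAHA 1 and young vehicle 6 both left out, an alternative chosen after seeing the data. For SAHA they were 39 with DESeq2, 47 with limma-voom and 37 without those libraries, and 11 to 33 with 1 library left out (13 without aged vehicle 1, 14 without aged vehicle 3, 11 without aged SAHA 6).

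No within-library value passed in the alternatives tried (lowest adjusted permutation p 0.131). The log2 ratio of the miR-132 arms for age was 0.062 by medians, 0.0032 without aged SAHA 1 and young vehicle 6 and -0.050 to 0.055 with 1 library left out. That of the miR-212 arms was 0.023 without those libraries and -0.041 to 0.023 with 1 left out, and the summed 3p level ran from -0.0034 to 0.097. For aged SAHA over young vehicle, log2 of miR-212 over miR-132 was 0.029 without those libraries and -0.083 to 0.016 with 1 left out. The correlation of miR-132-3p with miR-212-5p passed with library size only (r = 0.50, adjusted permutation p 0.0278, range over 3 alternatives 0.0278 to 0.203), and that of the miR-212 arms ended without those libraries (r = 0.74, adjusted permutation p 0.0502, range 0.00318 to 0.0502). The cause of these changes was not tested.

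Replicate numbers are shared between groups, and 4 of 16 same-numbered pairs had a correlation of deviations over 0.1 (range -0.32 to 0.31). Differently numbered pairs were not compared, so whether same-numbered libraries belong together was not tested. With the replicate number as a block, the age comparison had 8 calls, the SAHA comparison 15 and aged SAHA over young vehicle 58, with 0 members among them, and miR-132-3p for SAHA was at -0.16. With 1223 counts or more behind each member value, the spread between libraries rather than depth limits the comparisons for 3 of the 4 arms in every group.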
